A study of Mus musculus with 18 samples.

Results

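Expression of 8 genes of the plasminogen activator system and its protease inhibitors was examined in 18 tumours, out of 54532 genes in the read count table. The genes were taken by name: the activators Plau and Plat, the receptor Plaur, the serpins Serpine2 and Serpinb2, and the metalloproteinase inhibitors Timp1, Timp2 and Timp3. All 8 were found, each under a single identifier. PB2, a murine line of breast cancer cells, gave rise to the tumours, which grew in mice. The genotype label was EV for 10 tumours and p95HER2, a truncated form of the receptor HER2, for 8, and per the labels the mice of both groups were on a doxycycline diet (DOX625). The labels do not spell out EV, and they name neither the construct, the host strain, sex or age of the mice, nor whether each tumour came from its own mouse. P-values therefore measure the spread between these tumours, which may in part be technical.

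Plasminogen activators are serine proteases that cut plasminogen into plasmin, a broad protease that dissolves fibrin and extracellular matrix and activates some matrix metalloproteinases. Plau encodes urokinase, which acts at the cell surface when bound to its receptor, the product of Plaur, while Plat encodes tissue plasminogen activator, best known from blood vessels. Serpins such as the products of Serpine2 (protease nexin 1) and Serpinb2 (plasminogen activator inhibitor type 2) trap these proteases, and the TIMPs block metalloproteinases. In breast tumours the system is known from both the cancer cells and the surrounding stroma.

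The promoter sequences of the receptor and the serpins are shown because their AP-1 and Ets content can be read beside the levels of those factors. They come from RefSeq (GRCm38.p6, the assembly also called mm10), which gave promoters for 6 of the 8 genes. Plau and Plat had none. The windows are the 250 bases before the RefSeq start, printed 5′ to 3′ on the strand of the gene up to the first annotated exon. For Serpine2 this left 219 bases, inside the span of the longer GENCODE gene model, while the Timp2 window began inside an annotated exon and is not printed. Serpinb2 had a pair of RefSeq starts, of which the first is used. Capitals mark TGANTCA, an AP-1 motif, and GGAAG or its reverse complement CTTCC, the Ets letters used here, searched on both strands. GGAAG is narrower than the Ets core GGAA, which is not marked or counted and stands, for example, in the Serpinb2 window.
Plaur (chr7:24462233-24462482, plus strand): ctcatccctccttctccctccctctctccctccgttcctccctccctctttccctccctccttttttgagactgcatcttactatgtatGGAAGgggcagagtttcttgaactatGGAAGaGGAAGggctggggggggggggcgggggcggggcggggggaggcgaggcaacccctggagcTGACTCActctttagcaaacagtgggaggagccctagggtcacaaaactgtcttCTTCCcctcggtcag
Serpinb2 (chr1:107511173-107511422, plus strand): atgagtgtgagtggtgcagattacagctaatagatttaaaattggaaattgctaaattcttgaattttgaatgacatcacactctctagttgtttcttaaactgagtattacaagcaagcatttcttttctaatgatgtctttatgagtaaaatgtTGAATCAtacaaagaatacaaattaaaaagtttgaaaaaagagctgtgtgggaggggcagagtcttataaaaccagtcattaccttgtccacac
Serpine2 (chr1:79858697-79858915, minus strand): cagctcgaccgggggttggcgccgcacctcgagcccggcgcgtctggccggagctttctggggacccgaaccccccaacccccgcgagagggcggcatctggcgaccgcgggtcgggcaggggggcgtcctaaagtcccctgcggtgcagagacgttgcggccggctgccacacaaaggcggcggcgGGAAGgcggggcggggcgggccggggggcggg
The AP-1 letters stood in the windows of Plaur (TGACTCA, starting 69 bases before the start) and Serpinb2 (TGAATCA, starting 94 bases before it). They were absent from the 250-base windows of Serpine2, Timp1, Timp2 and Timp3. Of 32851 promoter windows of the same length, 6.75% held TGANTCA and 64.1% held GGAAG. Plaur held 4 matches to GGAAG on either strand, Timp1 held 3, Serpine2 and Timp3 held 2 each, Timp2 held 1 and Serpinb2 held 0. Of the 2 GGAAG matches of Serpine2, 1 lies in the part that is not printed. A match describes the letters and is not a mapped site.

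Every EV library was larger than every p95HER2 library, at 35030920 to 38464541 against 32686558 to 34804640 counts. Erbb2, which encodes HER2 and checks the labels, was at 60.4 to 74.9 CPM (counts relative to the library total, scaled by the TMM method) in EV and at 122 to 231 CPM in p95HER2 tumours. Epithelial identity was present in both groups, with Epcam at 638 ± 43.9 CPM in EV (SD, n = 10) and 660 ± 23.9 CPM in p95HER2 tumours (SD, n = 8). The tumour EV 1 stood apart, with the highest epithelial, basal epithelial and keratinocyte marker levels and the lowest skeletal muscle level of the EV group. It also had the highest Plaur, Serpinb2 and Timp3 values of all EV tumours, so values without it are given for these 3 genes. Among p95HER2 tumours, p95HER2 1 carries a tag number far from those of all the others, and the labels do not say what the numbers count.

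Of the 8 genes, 3 rose in p95HER2 tumours and 0 fell: Plau, Serpine2 and Timp2 (edgeR quasi-likelihood test, adjusted p under 0.05 over all genes). Among the 17123 genes tested, 5.73% rose and 4.45% fell by the same rule. All 8 genes passed the filter on low counts. All 8 had a log2 fold change (p95HER2 minus EV) above 0, against 47.7% of all genes tested, and their median was 0.43 against -0.01. The 8 genes and the lists below were chosen with earlier results of these data known. Their counts and medians are therefore descriptions and no test of the system as a whole. At an unadjusted p under 0.05, 5 of the 8 were higher and 0 lower in that test, against 13.0% of all genes higher. The share of all genes lower at an unadjusted p was not counted, here or for the lists below. DESeq2 called 5 of the 8, with Plaur and Plat in addition, and limma voom called 4, with Plaur in addition, each with 0 lower, where these tools called 6.29% and 7.29% of all genes higher. No gene of the 8 had groups that did not overlap, which 0.677% of all tested genes showed with p95HER2 higher. None of the 8 passed edgeR's test against a fold of 1.5, which called 0.251% of all genes higher.

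Levels per length, as CPM per kilobase of annotated exons, put 2 inhibitors far above the activators. In EV tumours Serpine2 was at 129 ± 9.07 and Timp2 at 110 ± 22.4 CPM per kilobase (SD, n = 10), Timp3 at 34.9 ± 9.56 and Timp1 at 24.8 ± 9.79. Plau followed at 8.08 ± 1.21, Plaur at 4.60 ± 1.90, Plat at 1.90 ± 0.36 and Serpinb2 at 0.33 ± 0.52. Values of Serpine2 and Timp2 overlapped between EV tumours, as did those of Timp3 and Timp1, and differences between genes were not tested. In p95HER2 tumours the order was the same except that Timp2, at 158 ± 21.1, stood above Serpine2, at 148 ± 10.8 (SD, n = 8), again with overlapping values. There Plau was at 12.1 ± 4.07 and Plaur at 7.03 ± 2.32. Averaged over all tumours, Serpine2 ranked 301 and Timp2 ranked 326 of 17117 genes per length, and Serpinb2 ranked 14831.

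**Figure D1:**
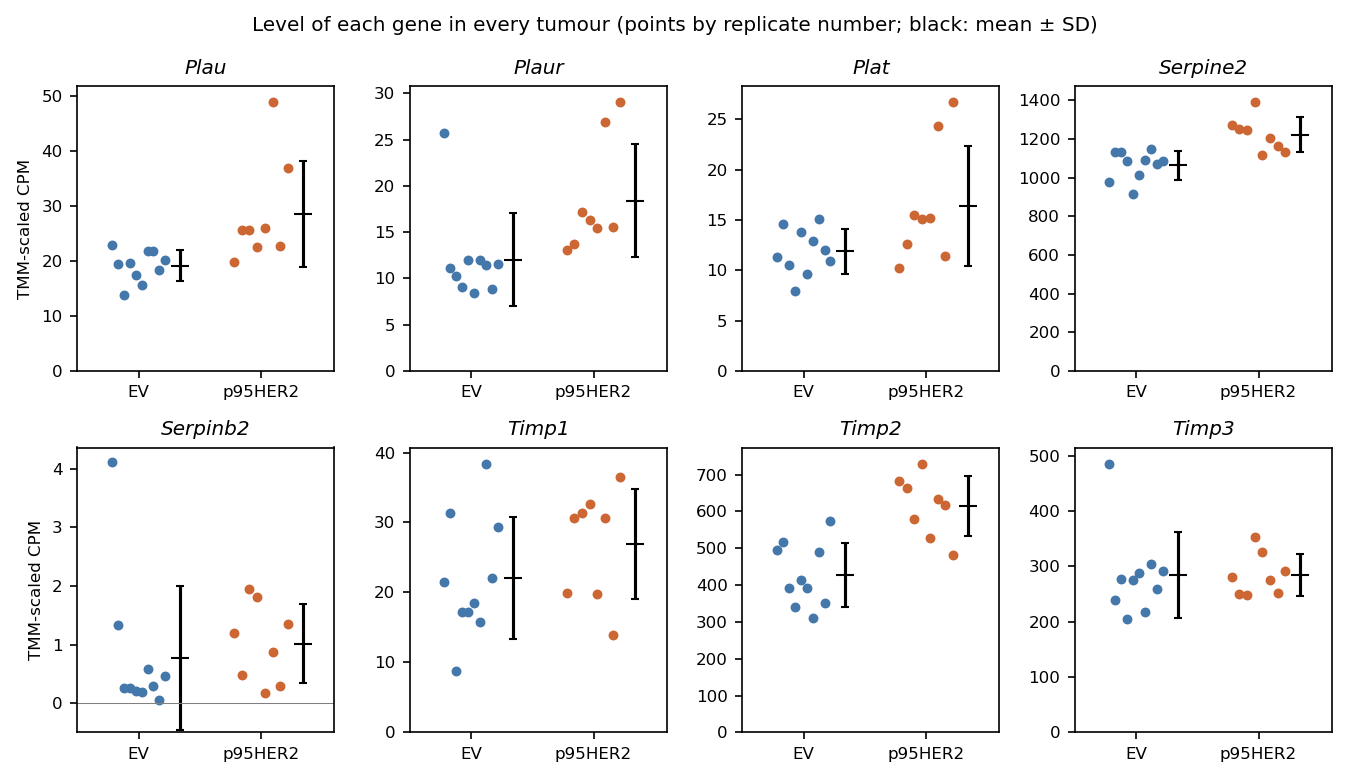
Level of each of the 8 genes in TMM-scaled CPM (vertical axes, separate scales) in the 10 EV (blue) and 8 p95HER2 (orange) tumours, with the mean and SD in black. Plau, Serpine2 and Timp2 lie higher in p95HER2 tumours with overlapping ranges, and EV 1, the first blue point, is the highest EV tumour for Plau, Plaur, Serpinb2 and Timp3.

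Urokinase mRNA rose. Plau (ENSMUSG00000021822, chromosome 14, 20836660 to 20843385, plus strand, mm10) ran from 13.8 CPM (EV 3) over a median of 19.5 to 22.9 CPM (EV 1) in EV tumours. In p95HER2 tumours it ran from 19.9 (p95HER2 1) over 25.7 to 48.9 CPM (p95HER2 6). Each of the 8 p95HER2 tumours exceeded the EV median, with 5 above the highest EV tumour. The means were 19.1 ± 2.85 (SD, n = 10) and 28.5 ± 9.64 CPM (SD, n = 8), a rise of 1.49-fold (log2 fold change 0.58, SE 0.15, edgeR adjusted p = 0.0193). The tumours p95HER2 6 and p95HER2 8 were far above the other 6, and the coefficient of variation was 33.8% in p95HER2 against 14.9% in EV tumours. Without both of them, a setting chosen after the values were seen, the log2 fold change was 0.31 and still passed (edgeR adjusted p = 0.0396).

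The receptor gene Plaur (ENSMUSG00000046223, chromosome 7, 24462484 to 24475968, plus strand) did not pass. Its values ran from 8.47 (EV 6) over a median of 11.3 to 25.7 CPM (EV 1) in EV and from 13.1 (p95HER2 1) over 15.9 to 29.0 CPM (p95HER2 8) in p95HER2 tumours. The lowest p95HER2 tumour lay above 9 of the 10 EV tumours, all but EV 1. The log2 fold change was 0.61 (SE 0.21, edgeR adjusted p = 0.0709). Without EV 1 it was 0.81 and passed (edgeR adjusted p = 0.00256), and over the 18 fits that each left out 1 tumour the adjusted p ran from 0.00256 to 0.132. Without p95HER2 6 and p95HER2 8 it was 0.34 (edgeR adjusted p = 0.273).

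Plat, the gene of tissue plasminogen activator (ENSMUSG00000031538, chromosome 8, 22757727 to 22782844, plus strand), did not pass either. It ran from 7.97 (EV 4) over 11.6 to 15.1 CPM (EV 8) in EV and from 10.2 (p95HER2 1) over 15.1 to 26.7 CPM (p95HER2 8) in p95HER2 tumours. Of the p95HER2 tumours 6 lay above the EV median, and p95HER2 6 and p95HER2 8 were again the highest. The log2 fold change was 0.46 (SE 0.17, edgeR adjusted p = 0.0928), and without these 2 tumours it was 0.17 (edgeR adjusted p = 0.432). The log2 ratio of Plau to Plat within a tumour was 0.67 ± 0.29 in EV (SD, n = 10) and 0.80 ± 0.21 in p95HER2 tumours (SD, n = 8), a difference of 0.12 that did not pass (two-sided exact permutation test, p = 0.324, adjusted p = 0.473 over 5 ratios).

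Other genes of plasminogen activation were taken from a list of 26, of which 19 passed the filter on low counts. Of these 3 rose and 0 fell, all 3 of them endocytic receptors, with a list median of 0.04 on the log2 scale. Of all genes tested, 5.73% rose and 4.45% fell. At an unadjusted p under 0.05, 6 were higher, against 13.0% of all genes, and 2 lower in edgeR. DESeq2 called 4 higher and 0 lower and limma voom 3 and 0. Over all genes DESeq2 called 1252 higher and 1147 lower of 19891, and limma voom 1248 and 1040 of 17123. Of the 19 log2 fold changes 12 were above 0, and the lowest was -0.61. Vldlr rose by 0.31 (SE 0.07, edgeR adjusted p = 0.00861) and Lrp1, which clears complexes of activators with serpins, by 0.27 (edgeR adjusted p = 0.0363). Igf2r, a receptor of IGF2 and mannose 6-phosphate, rose by 0.14 (edgeR adjusted p = 0.0263). Lrp1 lost its call without any 1 of 9 tumours (EV 2, 4, 5 or 9, or p95HER2 3, 4, 5, 6 or 8), with an edgeR adjusted p of up to 0.0757, and the Igf2r call without p95HER2 1 or p95HER2 2 (edgeR adjusted p up to 0.0585). Igf2r also missed with library totals as scaling (edgeR adjusted p = 0.0506), and Igf2r and Lrp1 missed with no filter (edgeR adjusted p = 0.0717 and 0.0538). Lrp1 missed again without p95HER2 6 and p95HER2 8 (edgeR adjusted p = 0.105).

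The abundant surface proteins that can hold plasminogen gave no call: Eno1 had means of 1227 ± 62.8 (EV) and 1250 ± 94.8 CPM (p95HER2), and Anxa2 had a log2 fold change of 0.19 (edgeR adjusted p = 0.232). Without EV 1, Anxa2 passed (edgeR adjusted p = 0.0267). Of the other settings it passed in 2, with epithelial or keratinocyte marker levels as a covariate (edgeR adjusted p = 0.0207 and 0.00655), and missed in 13. St14, a membrane serine protease that can activate pro-urokinase, was at 0.06 (edgeR adjusted p = 0.445). Plasminogen mRNA itself was scarce, with 3 counts of Plg over all 18 libraries, all in p95HER2 tumours.

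Of the serpins, Serpine2 rose by a small amount from a high level. Serpine2 (ENSMUSG00000026249, chromosome 1, 79794197 to 79861180, minus strand) inhibits thrombin, urokinase and tissue plasminogen activator. It ran from 914 (EV 5) over 1088 to 1147 CPM (EV 8) in EV and from 1118 (p95HER2 5) over 1226 to 1391 CPM (p95HER2 4) in p95HER2 tumours. Each of the 8 p95HER2 tumours exceeded the EV median, with 6 above the highest EV tumour. The fold change was 1.15 (log2 0.20, SE 0.05, edgeR adjusted p = 0.0151). The coefficient of variation was 7.05% in EV and 7.30% in p95HER2 tumours, the smallest of the 8 genes in both groups.

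Serpinb2 (ENSMUSG00000062345, chromosome 1, 107511423 to 107535478, plus strand), which encodes a mostly intracellular inhibitor of urokinase, was scarce and variable. Its libraries held 2 to 151 counts. It ran from 0.0545 (EV 9) over 0.281 to 4.11 CPM (EV 1) in EV and from 0.171 (p95HER2 5) over 1.03 to 1.95 CPM (p95HER2 3) in p95HER2 tumours. Of the p95HER2 tumours 7 lay above the EV median and 0 above EV 1. The log2 fold change was 0.39 with an approximate 95% interval from -0.91 to 1.69 (edgeR adjusted p = 0.76). Without EV 1 it was 1.32 and did not pass (edgeR adjusted p = 0.0913). The log2 ratio of Serpine2 to Serpinb2 differed by -0.25 between the groups (two-sided exact permutation test, adjusted p = 0.547).

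Serpinb2 lies in a cluster of clade B serpin genes on chromosome 1. Of 11 other members of the cluster, 3 passed the filter, of which 1 rose and 1 fell, against 5.73% and 4.45% of all genes. Serpinb5, which encodes maspin, fell by 0.30 on the log2 scale (SE 0.07, edgeR adjusted p = 0.00678), from 130 ± 16.0 to 105 ± 7.81 CPM, with all 8 p95HER2 tumours below the EV median. Serpinb11 rose by 1.37 on the log2 scale (SE 0.35, edgeR adjusted p = 0.0154) at a level under 1 CPM on average in both groups. Serpinb8 had a log2 fold change of -0.12 (edgeR adjusted p = 0.314). Of 17 serpins elsewhere in the genome, 10 were tested. Of these edgeR called 0, against 10.2% of all genes, with 0 also at an unadjusted p under 0.05 and 0 by DESeq2 and by limma voom. Their median was -0.18 and their most abundant genes were Serpinh1, Serpinb6a and Serpinf1, with log2 fold changes of -0.11, -0.08 and -0.25.

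Among the TIMPs only Timp2 passed. Timp2 (ENSMUSG00000017466, chromosome 11, 118301069 to 118355740, minus strand) encodes an inhibitor that also takes part, with MMP14, in activating pro-MMP2 at the cell surface. It ran from 310 (EV 7) over 403 to 575 CPM (EV 10) in EV and from 481 (p95HER2 8) over 624 to 730 CPM (p95HER2 4) in p95HER2 tumours. Each of the 8 p95HER2 tumours exceeded the EV median, with 6 above the highest EV tumour. The means were 428 ± 87.1 (SD, n = 10) and 614 ± 82.1 CPM (SD, n = 8), a fold change of 1.43 (log2 0.52, SE 0.11, edgeR adjusted p = 0.00692). Over the 18 fits without 1 tumour it passed each time, with log2 fold changes from 0.48 to 0.58.

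Timp1 (ENSMUSG00000001131, chromosome X, 20870166 to 20874735, plus strand), a secreted inhibitor of many metalloproteinases, varied widely within both groups. It ran from 8.82 (EV 3) over 20.01 to 38.4 CPM (EV 8) in EV and from 13.99 (p95HER2 7) over 30.7 to 36.5 CPM (p95HER2 8) in p95HER2 tumours. The highest tumour of all was thus an EV tumour. The log2 fold change was 0.29 with an approximate 95% interval from -0.18 to 0.76 (edgeR adjusted p = 0.486).

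Timp3 (ENSMUSG00000020044, chromosome 10, 86300372 to 86349506, plus strand) encodes the TIMP that binds to the extracellular matrix. It ran from 204 (EV 4) over 276 to 485 CPM (EV 1) in EV and from 247 (p95HER2 3) over 278 to 352 CPM (p95HER2 4) in p95HER2 tumours. Of the 8 p95HER2 tumours, 4 exceeded the EV median. The means were 284 ± 77.9 (SD, n = 10) and 284 ± 37.8 CPM (SD, n = 8), with a log2 fold change of 0.00 and an approximate 95% interval from -0.26 to 0.26 (edgeR adjusted p = 0.996). Without EV 1 the log2 fold change was 0.12 (edgeR adjusted p = 0.384).

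The change of Timp2 differed from that of Timp3. The log2 ratio of Timp2 to Timp3 within a tumour was 0.60 ± 0.30 in EV (SD, n = 10) and 1.11 ± 0.27 in p95HER2 tumours (SD, n = 8), a difference of 0.50 (two-sided exact permutation test over 43758 assignments, p = 0.00242, adjusted p = 0.0121 over 5 ratios). Each of the 8 p95HER2 tumours exceeded the EV median of this ratio. The ratio of Timp1 to Timp2 differed by -0.21 and that of Timp1 to Timp3 by 0.29, and neither passed (two-sided exact permutation test, adjusted p = 0.473 for each). Timp1 and Timp3 lie within Syn1 and Syn3, genes on the opposite strand, whose counts came to 2.18% and 1.64% of those of Timp1 and Timp3. Cep295nl overlaps Timp2 on the same strand with 0.252% of its counts.

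Metalloproteinases, the targets of the TIMPs, and their other inhibitors were listed as 31 genes, of which 29 were tested. Of these 6 rose and 0 fell, against 5.73% and 4.45% of all genes, with a median of 0.07 on the log2 scale. At an unadjusted p under 0.05, 8 were higher, against 13.0% of all genes, and 4 lower in edgeR. DESeq2 and limma voom each called 7 higher and 2 lower. Over all genes DESeq2 called 1252 higher and 1147 lower of 19891, and limma voom 1248 and 1040 of 17123. The list was split, with 16 of the 29 log2 fold changes above 0 and the lowest at -0.80. Mmp2, the gelatinase that TIMP2 binds, rose from 255 ± 61.1 to 417 ± 42.0 CPM, the largest rise in CPM of the 6. The stromelysin gene Mmp10 rose by 3.69 and the collagenase gene Mmp13 by 1.68 on the log2 scale. Mmp12, the macrophage elastase gene, rose from 18.8 ± 8.56 to 35.5 ± 7.79 CPM, and the aggrecanase gene Adamts4 rose by 0.35. Reck, a membrane-anchored inhibitor, rose by 0.31 (edgeR adjusted p = 0.0346), a call that ended without EV 7 or without p95HER2 2, 4 or 5 (edgeR adjusted p up to 0.0805) and with no filter (edgeR adjusted p = 0.0658). Without p95HER2 6 and p95HER2 8, Mmp12 missed (log2 fold change 0.76, edgeR adjusted p = 0.0717). Mmp14, the membrane protease that forms a complex with TIMP2, missed the threshold at 0.18 (SE 0.06, edgeR adjusted p = 0.0514). Of the other settings on scaling, filter, tool and covariate, Mmp14 missed in 9 and passed in 6. These 6 included library totals (edgeR adjusted p = 0.0486) and DESeq2 (adjusted p = 0.0356). Adam10 and Adam17, sheddases that TIMPs also inhibit, were at 0.07 and -0.00 (edgeR adjusted p = 0.449 and 0.982).

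Of 14 AP-1 and Ets factors, 2 rose and 0 fell, against 5.73% and 4.45% of all genes, with a median of 0.09 on the log2 scale. At an unadjusted p under 0.05, 4 were higher, against 13.0% of all genes, and 1 lower in edgeR. DESeq2 called 3 higher and 0 lower, against 1252 and 1147 of 19891 genes. Of the 14 log2 fold changes 9 were above 0, and the lowest was -0.42. Fosl1, an AP-1 subunit, rose from 1.28 ± 1.26 to 4.62 ± 3.06 CPM (log2 fold change 1.85, SE 0.42, edgeR adjusted p = 0.0101), and Etv4, an Ets factor of the PEA3 group, from 78.5 ± 10.2 to 93.5 ± 6.19 CPM (edgeR adjusted p = 0.0199). The abundant factors Jun, Jund and Ehf had log2 fold changes of -0.13, 0.05 and 0.15 and did not pass.

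Cell type markers moved with the groups in these bulk samples, in which fewer cells of a type and less RNA per cell cannot be told apart. Levels, the mean log2(CPM + 0.5) over a marker list, were lower in p95HER2 tumours for macrophages (6.06 ± 0.29 in EV and 5.51 ± 0.30 in p95HER2, two-sided exact permutation test, adjusted p = 0.00976 over 14 lists). They were also lower for adipocytes (difference -1.05, adjusted p = 0.0096 in the exact permutation test), cytotoxic cells (-0.75, adjusted p = 0.0387), keratinocytes (-0.49, adjusted p = 0.0387) and T cells (-0.87, adjusted p = 0.0464), all by that exact test. The summed macrophage marker CPM ran from 836 to 1613 in EV and from 619 to 1113 in p95HER2 tumours, and 7 of its 12 genes fell while 1, Cd14, rose. The summed cytotoxic marker CPM ran from 4.25 to 30.0 in EV and from 1.52 to 12.6 in p95HER2 tumours. Fibroblast (-0.30, adjusted p = 0.0644), endothelial (-0.09, adjusted p = 0.531) and epithelial levels (-0.01, adjusted p = 0.925) did not pass the exact test. The macrophage and adipocyte differences passed without any 1 tumour, while those of T cells, cytotoxic cells and keratinocytes missed in 12, 8 and 7 of the 18 tests without 1 tumour (adjusted p up to 0.109, 0.0967 and 0.110 in the exact permutation test). Without EV 1, 5 further lists passed: basal epithelial (0.41), neutrophil (0.30) and erythroid levels (0.81) were higher in p95HER2 tumours, and skeletal muscle (-1.35) and fibroblast levels (-0.33) were lower (adjusted p from 0.00905 to 0.0344 in the exact permutation test). The neutrophil markers were scarce and split. Over all tumours, of the 5 tested, S100a8 rose and Clec4d fell (log2 fold changes 0.90 and -0.67, edgeR adjusted p = 0.000575 and 0.0328). The fibroblast level also passed without EV 3 or p95HER2 6, and the neutrophil level without EV 2. No marker of any list had 0 counts in all libraries.

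Fits with a marker level as a covariate gave different outcomes for the 3 called genes. With the macrophage level, which differs between the groups itself, Plau had a log2 fold change of 0.97 and passed (edgeR adjusted p = 0.00286), while Timp2, at 0.36, and Serpine2, at 0.11, did not (edgeR adjusted p = 0.349 and 0.505). With the fibroblast level Plau was at 0.75 and Plat at 0.72, and both passed (edgeR adjusted p = 0.00501 and 0.00784), while Timp2 and Serpine2 missed (edgeR adjusted p = 0.0520 and 0.0891). With the cytotoxic level, a covariate added after the data were seen, none of the 8 passed: Plau was at 0.66, Timp2 at 0.22 and Serpine2 at 0.15 (edgeR adjusted p = 0.0583, 0.104 and 0.186). The endothelial, epithelial, keratinocyte and skeletal muscle levels left all 3 called. Of the 8 genes, 1 was called with the macrophage, 2 with the fibroblast, 0 with the cytotoxic, 5 with the endothelial, 4 with the epithelial, 3 with the skeletal muscle and 5 with the keratinocyte level. Over all genes the same fits called 0.829%, 2.99%, 2.03%, 5.73%, 7.07%, 5.71% and 7.12% higher, in that order. Of the called partners, Vldlr, Igf2r and Lrp1 all missed with the macrophage and with the cytotoxic level. Vldlr and Igf2r also missed with the fibroblast level, Igf2r with the keratinocyte level and Lrp1 with the skeletal muscle level (edgeR adjusted p = 0.0940, 0.159, 0.0545 and 0.0543). In the Serpinb2 cluster, Serpinb5 missed with the macrophage level, and Serpinb11 with the macrophage, fibroblast and cytotoxic levels. Mmp10 and Mmp13 passed with each of the 7 levels. Mmp2 missed with the macrophage level (edgeR adjusted p = 0.136), and Adamts4 with the macrophage and cytotoxic levels. Mmp12 and Reck missed with the macrophage, fibroblast and cytotoxic levels, and Reck with the skeletal muscle level too (edgeR adjusted p = 0.0590). Etv4 missed with the macrophage and fibroblast levels and Fosl1 with the cytotoxic level (edgeR adjusted p = 0.533, 0.0967 and 0.0651). With the keratinocyte level, also added after the data were seen, Plaur was at 0.93 and Serpinb2 at 1.67, and both passed (edgeR adjusted p = 0.000904 and 0.0318). A change in the makeup of the tumours and a change within cells cannot be told apart by these fits.

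**Figure D2:**
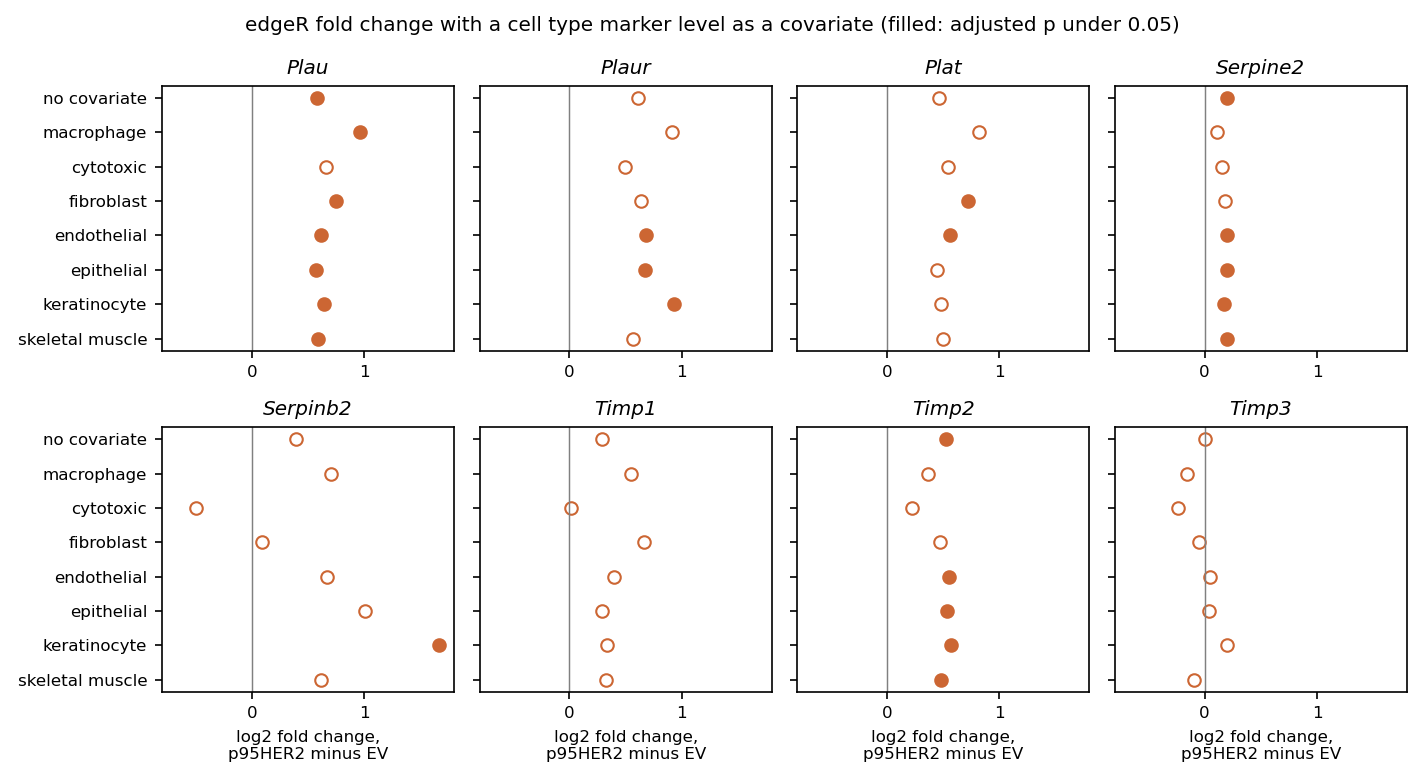
Log2 fold change (p95HER2 minus EV, horizontal axes) of each gene in the edgeR fit without a covariate and with the level of 1 cell type marker list as a covariate, filled where the adjusted p was under 0.05. Timp2 falls from 0.52 to 0.36 with the macrophage level and to 0.22 with the cytotoxic level, while Plau rises from 0.58 to 0.97 with the macrophage level.

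Relations within the groups were computed on deviations from the group mean over the 18 tumours, and of 112 pairs of a gene with a marker level 19 passed by Pearson's r (permutation test within groups, adjusted p under 0.05). Timp2 fell as cytotoxic markers rose (r = -0.87, permutation p = 1e-05, the smallest these permutations can give, adjusted p = 0.00112, and rho = -0.85, adjusted p = 0.00728). It did the same with T cell markers (r = -0.80, permutation p = 0.00026, adjusted p = 0.00728, and rho = -0.81, adjusted p = 0.00747). Without the 2 tumours farthest from the median of the marker level these values were -0.82 and -0.80.

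Plat followed endothelial markers (r = 0.72, permutation p = 0.00049, adjusted p = 0.00952, and rho = 0.77, adjusted p = 0.00747), with r = 0.64 without the 2 farthest tumours, and fibroblast markers (r = 0.67, permutation p = 0.00334, adjusted p = 0.0249, and rho = 0.76, adjusted p = 0.0088). Pericyte and smooth muscle markers gave the same for Plat (r = 0.63, permutation p = 0.00167, adjusted p = 0.0192, and rho = 0.70, adjusted p = 0.022). Timp1 also followed endothelial markers (r = 0.69, permutation p = 0.00313, adjusted p = 0.0249, and rho = 0.71, adjusted p = 0.0246), with r = 0.75 without the 2 farthest. Plau was related to macrophage markers by r = 0.64 (permutation p = 0.00446, adjusted p = 0.0294), while rho = 0.60 did not pass (adjusted p = 0.0795). It was related to basal epithelial markers by r = 0.63 (permutation p = 0.00188, adjusted p = 0.0192), where rho = 0.57 did not pass either (adjusted p = 0.104), and r was 0.48 without EV 1 and p95HER2 6. Timp3 was related to epithelial markers by r = 0.74 (permutation p = 0.00317, adjusted p = 0.0249, and rho = 0.51, adjusted p = 0.163) and to T cell markers by r = -0.68 (permutation p = 0.00213, adjusted p = 0.0199, and rho = -0.54, adjusted p = 0.153), with rho past the threshold in neither. Without the 2 farthest tumours of each marker level, these r were 0.55 and -0.38.

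Plaur followed basal epithelial markers (r = 0.91, permutation p = 0.00013, adjusted p = 0.00485, and rho = 0.77, adjusted p = 0.00728). Without EV 1 and p95HER2 6, the farthest from the median, r was 0.74. Plaur followed epithelial markers as well (r = 0.86, permutation p = 0.00051, adjusted p = 0.00952, and rho = 0.79, adjusted p = 0.00728), with r = 0.59 without EV 1 and p95HER2 8. Its relations to neutrophil (r = 0.73, permutation adjusted p = 0.0126) and erythroid markers (r = 0.67, permutation adjusted p = 0.0453) passed by r and not by rho. The neutrophil r was 0.68 without EV 1 and EV 2, and the erythroid r was 0.07 without EV 1 and p95HER2 8. Serpinb2 followed neutrophil markers (r = 0.86, permutation p = 8e-05, adjusted p = 0.00448, and rho = 0.79, adjusted p = 0.00728), and r was 0.74 without EV 1 and EV 2. Its relation to keratinocyte markers fell from r = 0.77 (permutation p = 0.00189, adjusted p = 0.0192, and rho = 0.57, adjusted p = 0.022) to 0.48 without EV 1 and p95HER2 8. Serpinb2 was also related to erythroid, adipocyte and basal epithelial markers by r (0.72, 0.72 and 0.73, permutation adjusted p = 0.0192, 0.0284 and 0.0453), where rho did not pass. Without the 2 farthest tumours of each marker level, r was 0.59, 0.34 and 0.58. No relation of Serpine2 passed.

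**Figure D3:**
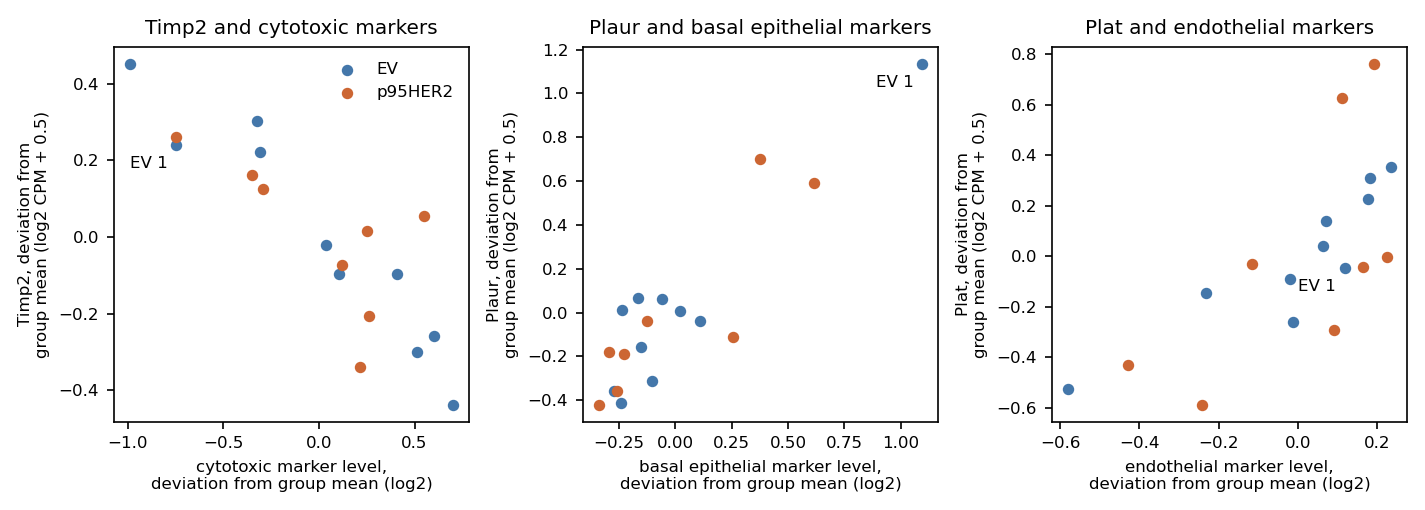
Deviation of Timp2, Plaur and Plat from the group mean in log2(CPM + 0.5) (vertical) against that of a marker level (horizontal) in EV (blue) and p95HER2 (orange) tumours. Timp2 runs down as cytotoxic markers run up (r = -0.87), Plaur runs up with basal epithelial markers with EV 1 far from the rest (r = 0.91), and Plat runs up with endothelial markers (r = 0.72).

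Among the 28 pairs of the 8 genes, Plau and Plaur, the activator and its receptor, were the pair that passed by both measures (r = 0.72, permutation p = 0.00052, adjusted p = 0.0146, and rho = 0.70, adjusted p = 0.0462). Without p95HER2 6 and p95HER2 8 their r was 0.59. Plau and Plat were related by r = 0.74 and missed (permutation p = 0.00362, adjusted p = 0.0507, and rho = 0.62, adjusted p = 0.0825), with r = 0.53 without the same 2 tumours. Plaur and Plat missed by Pearson (r = 0.61, permutation p = 0.00877, adjusted p = 0.0819) and passed by Spearman (rho = 0.68, adjusted p = 0.0462), with r = 0.81 without EV 1 and p95HER2 8. The TIMPs did not vary together beyond the threshold, with r = 0.41 for Timp1 and Timp2, 0.16 for Timp1 and Timp3 and 0.44 for Timp2 and Timp3 (permutation, adjusted p = 0.313, 0.694 and 0.304, and rho = 0.49, 0.14 and 0.35).

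Among the 8 p95HER2 tumours, p95HER2 8 and p95HER2 6 had the highest Erbb2 levels, 231 and 186 CPM, and also the highest Plau, Plaur and Plat levels. The tumour p95HER2 4 had almost as much Erbb2 as p95HER2 6, at 181 CPM. Its Plau, Plaur and Plat were at 22.6, 16.3 and 15.1 CPM, against 48.9, 26.9 and 24.3 CPM in p95HER2 6. The labels do not give the species of the p95HER2 sequence, so how much of it is counted under mouse Erbb2 is not known. The relation to Erbb2, examined after the data were seen, gave r = 0.84 for Plaur and 0.85 for Plat (exact permutation test, p = 0.00814 and 0.00704, adjusted p = 0.0325 for each over 8 genes), while rho, at 0.74 and 0.71, did not pass (exact permutation, adjusted p = 0.139 for each). Without p95HER2 6 and p95HER2 8, the farthest from the median, r was 0.37 and 0.46, so both relations rest on these tumours. Plau had r = 0.65 (exact permutation, adjusted p = 0.151, and rho = 0.43) and r = -0.12 without them. Timp1 had r = 0.78 (exact permutation, adjusted p = 0.0507, and rho = 0.81), which did not pass, and the same r without them. Timp2 had r = -0.26 (exact permutation, adjusted p = 0.607, and rho = -0.05), which turned to 0.60 without them. Its lowest p95HER2 value was that of p95HER2 8. Serpine2, Serpinb2 and Timp3 had r = 0.07, 0.62 and 0.30 (exact permutation, adjusted p = 0.863, 0.167 and 0.607). Without p95HER2 6 and p95HER2 8 these were 0.90, 0.82 and 0.49. The values without these tumours were not tested.

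**Figure D4:**
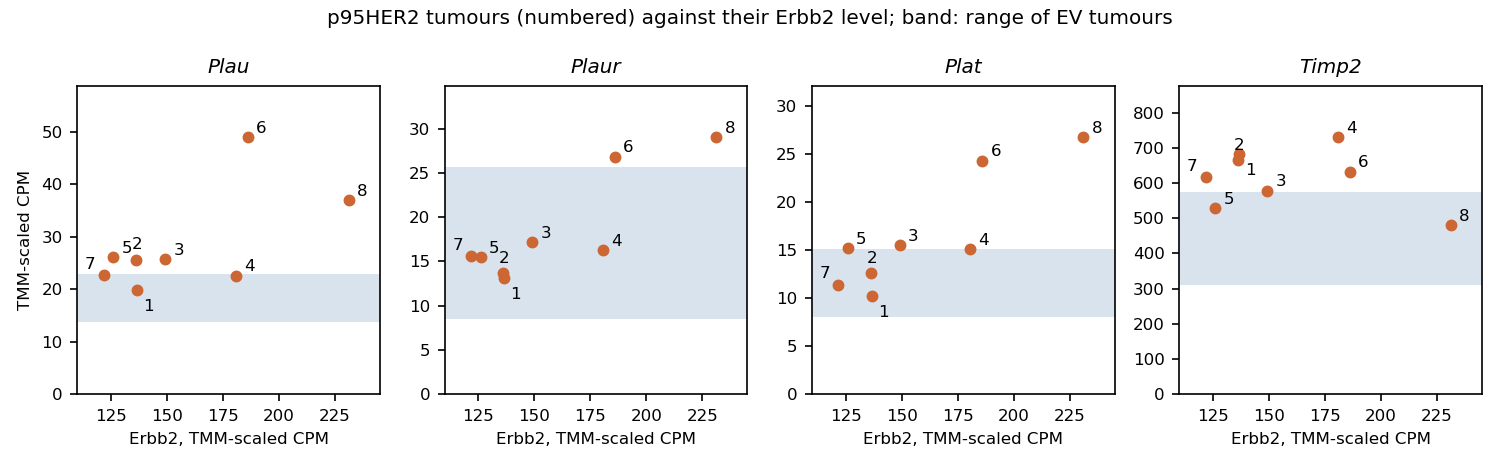
Levels of Plau, Plaur, Plat and Timp2 (vertical, TMM-scaled CPM) against Erbb2 (horizontal, TMM-scaled CPM) in the 8 p95HER2 tumours, numbered by replicate, with the range of EV tumours as a blue band. Tumours 6 and 8 are the highest for Plau, Plaur and Plat, and tumour 8 is the lowest for Timp2. Tumour 4, close to tumour 6 in Erbb2, lies far below it for Plau, Plaur and Plat.

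The genes whose within-group pattern over the 18 tumours was most like that of each called gene were taken from 12008 genes by Pearson's r on the same deviations, which share the libraries and their depth. For Plau these were Cavin2 (r = 0.91) and the cytokine gene Clcf1 (r = 0.88), for Serpine2 Pde9a (r = 0.79) and Ttc12 (r = 0.78), and for Timp2 the GTPase gene Rac1 (r = 0.88) and Tmem184a (r = 0.87). Clcf1 rose with p95HER2 (log2 fold change 1.24, edgeR adjusted p = 0.00245), while Cavin2 did not pass (0.17, edgeR adjusted p = 0.39). The other 4 rose, by 0.28 for Pde9a, 0.35 for Ttc12, 0.27 for Rac1 and 0.44 for Tmem184a on the log2 scale. Rac1 and Tmem184a both lie on chromosome 5. For Plaur, which was not called, the genes most like it were Fosl1 and the phosphatase gene Dusp5 (r = 0.93 for each), both named after their values were seen. The other uncalled genes had partners about as close: Ecm1 for Plat (r = 0.93), Rabgef1 for Timp3 (0.92), Plxna4 for Timp1 (0.91) and Smagp for Serpinb2 (0.90). All these r include EV 1, where Plaur, Serpinb2 and Timp3 were far above the other EV tumours, and were not computed without it.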

How the data were processed

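The authors deposited 1 table of raw counts, with a row for each of 54532 Ensembl genes. STAR 2.5, HTSeq 0.6.1 and mm10 are named in the submitters' processing notes. Strand option and annotation release: not given in the sources used here. Coordinates and exon lengths came from GENCODE M21. Groups came from the genotype label, and replicates were numbered in accession order.

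The 8 genes and the lists were chosen with earlier results of these data known. Genes were tested by edgeR 4.0.16 (filterByExpr, count of 10 and total of 15 at the least, TMM scaling, robust quasi-likelihood F-test) with Benjamini-Hochberg adjustment over 17123 genes. The tests were checked on simulated data. SE is the log2 fold change over the square root of F, and intervals are 1.96 SE to either side. Marker levels and ratios used log2(CPM + 0.5) with exact permutation over 43758 assignments, and relations 100000 permutations within groups. Named genes were the 8, Erbb2, up to 6 called and 3 abundant uncalled genes per list, up to 3 per marker list, and the 2 most alike per called gene. Alternatives were other scalings, filters and pseudocounts, DESeq2 1.42.0, limma 3.58.1 voom, a test against a fold of 1.5, marker levels as covariates and each tumour left out.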

Additional observations from a re-analysis of the deposited data

Results flagged for a closer look

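A value was listed here when the gap between the highest or lowest tumour of a group and its neighbour exceeded the 95% critical value of Dixon's test. Of 56 groups of values tested, 9 were listed, all in EV tumours, where chance gives about 1 in 20. Of the 9, 8 belong to EV 1. In EV 1, Plaur was at 25.7 CPM, Serpinb2 at 4.11 CPM and Timp3 at 485 CPM, each far above the other EV tumours. Its epithelial marker level was 7.57, its basal epithelial level 5.50 and its keratinocyte level 3.52, again the highest, while its skeletal muscle level of 3.25 was the lowest. Its log2 ratio of Serpine2 to Serpinb2 was 7.73, the lowest. In EV 3 the log2 ratio of Timp1 to Timp2 was -5.40, the lowest of the EV group. The part of these features of EV 1 in the group comparisons was examined only by leaving the tumour out.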

How the results depend on the processing

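Plau, Serpine2 and Timp2 kept their call without each of the 18 tumours in turn, with RLE scaling, library totals, both other filters, DESeq2 and limma voom. Against a fold of 1.5 they missed (log2 fold changes 0.58, 0.20 and 0.52), and the number called fell to 0 of the 8 genes, 0 plasminogen partners, 0 clade B serpins, 1 metalloproteinase gene and 0 AP-1 and Ets factors. That test asks for a larger change and called 43 genes higher and 9 lower of 17123. DESeq2 called 5 of the 8 genes, with Plaur at 0.61 and Plat at 0.47, and limma voom called Plaur at 0.65. The cause of the changes under the covariates below was not tested. With the macrophage level, Serpine2 was at 0.11, Timp2 at 0.36 and Timp3 at -0.15, and 1 of the 8 genes, 0 partners, 0 clade B serpins, 2 metalloproteinase genes and 1 AP-1 or Ets factor were called. Serpinh1 then turned to 0.076 and Serpinf1 to 0.32. With the fibroblast level, Serpine2 was at 0.18, Timp2 at 0.47 and Plat at 0.72, with 1 partner, 1 clade B serpin and 1 factor called, and Eno1 turned to -0.039, Serpinb6a to 0.0095 and Serpinf1 to 0.22. With the cytotoxic level, Plau was at 0.66, Serpine2 at 0.15, Timp2 at 0.22, Serpinb2 at -0.50 and Timp3 at -0.24, with 0 of the 8 genes, 0 partners, 1 clade B serpin, 2 other serpins and 1 factor called. Adam10 then turned to -0.030, Adam17 to 0.044 and Ehf to -0.11. With the endothelial level 5 of the 8 were called, with Plaur at 0.68 and Plat at 0.56, and with the epithelial level Plaur was at 0.67. With the keratinocyte level 5 of the 8 and 10 metalloproteinase genes were called, with Plaur at 0.93 and Serpinb2 at 1.67. Over all genes, 981 were higher and 762 lower without a covariate, 142 and 33 with the macrophage level, 512 and 270 with the fibroblast level, 348 and 154 with the cytotoxic level, 982 and 691 with the endothelial level, 1211 and 899 with the epithelial level, 978 and 825 with the skeletal muscle level and 1220 and 1257 with the keratinocyte level. Without p95HER2 6 and p95HER2 8 together, 1 other serpin (Serpinh1, lower at -0.24) and 5 AP-1 and Ets factors of either direction were called and Jund turned to -0.14. Over all genes that fit called 1050 higher and 943 lower of 17357. The keratinocyte and cytotoxic covariates and the removal of both tumours were chosen after seeing the data. A filter at 1 CPM left 1 clade B serpin called and Serpinb2 untested, with 952 genes higher and 742 lower of 14375. A pseudocount of 0.1 gave a keratinocyte difference of -0.59 (exact permutation, adjusted p = 0.0712) and a neutrophil difference of 0.52 (exact permutation, adjusted p = 0.0463).

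Without 1 tumour at a time, Plaur ran from 0.49 to 0.81, with EV 1 deciding its call. The calls ran from 3 to 4 of the 8 genes, from 2 to 5 partners (5 without EV 1) and from 2 to 4 AP-1 and Ets factors (4 without p95HER2 6). Over all genes the calls also moved, to 1201 higher and 1130 lower of 17069 without EV 1 and to 947 and 792 of 17234 without p95HER2 6. Marker differences ran from 0.20 to 0.41 for basal epithelium, -0.53 to -0.23 for keratinocytes, 0.22 to 0.30 for neutrophils, -1.02 to -0.71 for T cells, -0.86 to -0.64 for cytotoxic cells, -0.36 to -0.25 for fibroblasts, -1.35 to -0.56 for skeletal muscle and 0.39 to 0.81 for erythroid cells. Sign changes of values that were not called and moved by no more than 1 SE were not counted as turned. With library totals, 0 pairs of the 8 genes passed by both correlation measures, against 1 with TMM scaling. No paired analysis was possible because the labels give no replicate numbers or other link between EV and p95HER2 tumours.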
